A study of Caenorhabditis elegans with 16 samples.

Results

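The cuticle collagen genes named *col* were followed in *C. elegans* larvae that had food or had been without it for 6 hr. A gene was included where the array's annotation gave its probe set a single symbol made of *col* and a number. This selected 153 genes, each with 1 probe set, out of 25498 genes on the array. Of these, *col-66* and *col-182* are pseudogenes in RefSeq. RefSeq lists 159 genes of this name. The 6 others had no probe set of their own, and 4 of these 6 (*col-3*, *col-117*, *col-126* and *col-127*) were covered only by probe sets shared with other *col* genes. Of the 153 genes, 37 lie on chromosome IV, 31 on V, 27 on X, 24 on II, 22 on I and 12 on III.

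The cuticle is the extracellular coat of the worm, and most of it is collagen. Hypodermal cells (the epidermis) make it anew before each molt, and the collagen genes are switched on in waves within each molting cycle. The chains are hydroxylated on proline, joined by disulfide bonds and cut by proteases on their way out of the cell, and then crosslinked in the cuticle by oxidases. Some *col* genes belong to a stage, such as *col-19* in the adult and *col-2* in the dauer larva, but most have no known role of their own. Several were found to be needed for the long life of worms with low insulin signaling.

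Whole worms of 2 strains were used, wild-type N2 (IW314) and the mutant *alfa-1(ok3062)* (IW313), which carries a deletion in the gene on chromosome II that is the worm orthologue of *C9orf72*. Each was sampled with food and after 6 hr without it, with 4 arrays a group and 16 in all. The labels give the stage as L3 and say that fed controls were rocked in M9 buffer with food for the same 6 hr, while the study's methods describe L3/L4 worms and controls frozen at once. If the second account holds, the absence of food and the passage of 6 hr cannot be told apart in these groups. The source name of every sample gives IW314, and the groups follow the genotype and the title. The methods say that rinsed worms of a strain were divided among tubes and that the mutants had been backcrossed to N2. Whether the 4 samples within a group were grown separately is not stated. The p-values therefore describe how these samples scatter, and that scatter may be technical.

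All values below are log2 expression values, on which a difference of 1 is a 2-fold change. The array medians were 5.80 to 5.85. The *alfa-1* probe set read 9.11 to 9.59 on the N2 arrays and 7.39 to 7.67 on the mutant arrays, a difference of -1.64 in fed worms (limma, adjusted p = 1.00e-07) and -1.89 in starved worms (adjusted p = 1.21e-08), which follows the labels. Starved arrays stood apart from fed arrays on the first principal component (46.6% of the variance). On the second (15.3%), the array of N2 starved replicate 3 lay at -53.9 and that of mutant starved replicate 2 at 37.2, with the other 14 between -11.2 and 18.5. The *col* genes varied more than the array as a whole in starved N2, where their median SD was 0.266 against 0.171 over all genes. In the other groups it was 0.159 against 0.139 (N2 fed), 0.142 against 0.135 (mutant fed) and 0.200 against 0.168 (mutant starved). Results that rest on N2 starved replicate 3 are therefore given with and without it.

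Starvation lowered many more *col* genes than it raised in N2. Of the 153 genes, 53 fell and 16 rose in starved worms at an adjusted p under 0.05, and 84 did not pass. Over all genes tested the same rule called 11.6% lower and 10.8% higher, against 34.6% and 10.5% of the *col* genes. The median difference of the 153 genes was -0.29, against 0.0076 over all genes, and 68.6% of the 153 lay below 0 against 48.7% of all. The falls ran from -0.33 to -1.40 with a median of -0.82, and the rises from 0.27 to 0.94 with a median of 0.62. Every starved array lay on the same side of every fed array in 60 of the 153 genes (39.2%), called or not, and in 24.4% of all genes. Those 60 included 43 of the 53 falls and 12 of the 16 rises. Because RNA came from whole worms, fewer hypodermal cells and less collagen RNA per cell cannot be told apart.

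**Figure D1:**
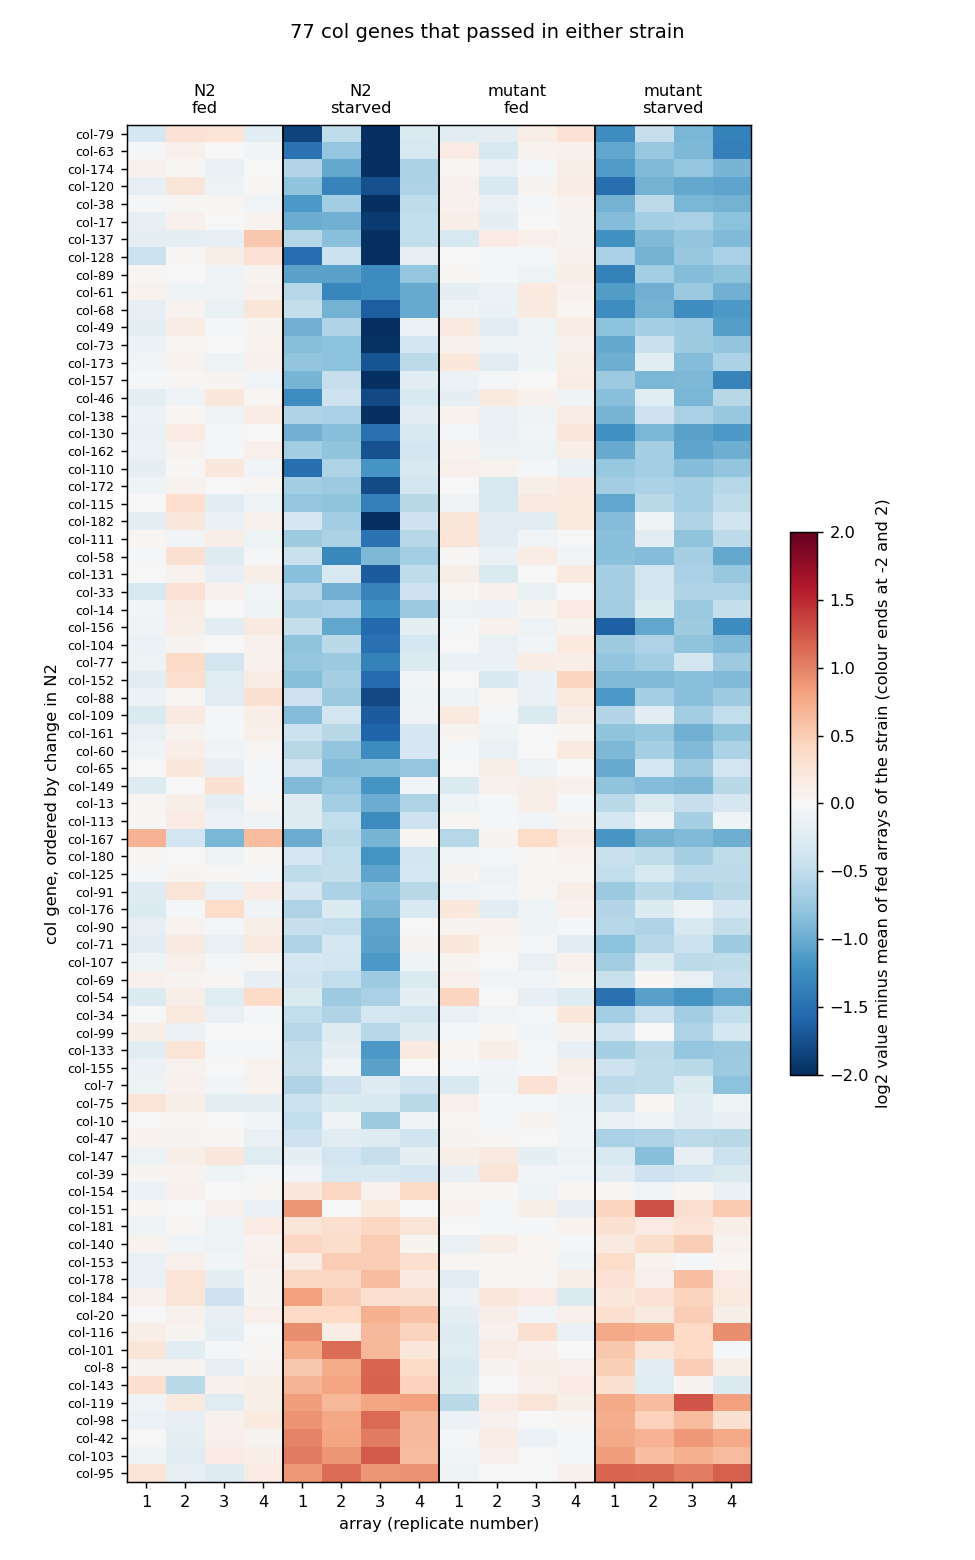
Log2 value of each of the 77 *col* genes that passed in either strain (rows, ordered by the change in N2) on each of the 16 arrays (columns), minus the mean of the fed arrays of the same strain. Blue is lower and red higher, with colours ending at -2 and 2. The column of N2 starved replicate 3 is the darkest blue, and it was the lowest starved array for 44 of the 53 genes that fell in N2.

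The size of the falls in N2 differed between the starved arrays. For the 53 genes, the median difference from the fed mean was -0.60, -0.65, -1.48 and -0.37 in starved replicates 1 to 4. N2 starved replicate 3 was the lowest of the 4 for 44 of them, and N2 starved replicate 4 the highest for 34. The 16 genes that rose differed less between arrays, with medians of 0.71, 0.59, 0.69 and 0.41. Without N2 starved replicate 3 there were 41 falls, all 41 among the 53, and 15 rises, of which 13 were among the 16. Over all 25498 genes, 2717 fell and 2215 rose without that array, against 2948 and 2759 with it. In the 8 fits that each left out 1 array of the comparison, 34 of the 53 falls and 10 of the 16 rises passed every time. When the spread was taken from the N2 arrays alone, 31 *col* genes fell and 12 rose, against 2298 and 1970 of all genes. The methods' t-test after Benjamini-Hochberg adjustment gave 9 falls and 7 rises in N2, and 51 falls and 7 rises in the mutant.

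*col-120*, a collagen gene needed for longevity under low insulin signaling, showed the plainest large fall. It read 9.93, 10.33, 10 and 10.12 in fed N2 and 9.29, 8.76, 8.34 and 9.47 in starved N2. All starved arrays lay below all fed arrays, with replicate 3 lowest. The difference was -1.13 ± 0.202 (SE), or 2.19-fold lower, with an adjusted p of 0.000939, and it was -0.92 without replicate 3 (adjusted p = 0.00189).

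*col-79* had the largest mean difference and the widest spread. Its fed values were 8.19, 8.83, 8.81 and 8.31 and its starved values 6.68, 8.03, 5.58 and 8.24. Starved replicate 4 overlapped the fed range, while replicates 1 and 3 lay far below it. The difference of -1.40 ± 0.426 (adjusted p = 0.0265) was no longer past the threshold when any of 4 arrays was left out: fed replicate 2 (adjusted p = 0.0703), fed replicate 3 (0.0696), starved replicate 1 (0.0722) or starved replicate 3 (0.0614, difference -0.89).

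*col-63* fell from 11.38, 11.50, 11.39 and 11.35 to 9.93, 10.63, 8.92 and 11.09. The groups did not overlap, but the starved arrays were spread far more widely than the fed arrays. The difference was -1.26 ± 0.315 (adjusted p = 0.00905), or -0.86 without replicate 3 (adjusted p = 0.0109).

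The other largest falls in N2 were *col-174* (-1.14), *col-38* (-1.1), *col-17* (-1.09), *col-137* (-1.06) and *col-128* (-1.06). *col-17* is a larval collagen gene that the heterochronic factor LIN-29 turns off in the adult. It fell from 11.10, 11.35, 11.28 and 11.34 to 10.27, 10.31, 9.36 and 10.77, with no overlap (adjusted p = 0.00113). *col-174*, *col-38* and *col-17* passed whichever array was left out. *col-137* did not pass without fed replicate 4 (-0.87, adjusted p = 0.0647), and *col-128* did not pass without fed replicate 3, fed replicate 4, starved replicate 1 or starved replicate 3 (adjusted p = 0.0538 to 0.0659). *col-89*, named here after its values were seen, had the smallest adjusted p of the falls (4.33e-05). Its 4 starved arrays lay close together at 7.94, 7.94, 7.76 and 8.24, against 9.04, 9.01, 8.95 and 9.07 in fed worms.

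The rises in N2 were led by *col-103* and *col-95* (both 0.94), *col-98* and *col-42* (both 0.87). *col-95* read 6.27, 5.83, 5.74 and 6.16 in fed worms and 6.87, 7.12, 6.88 and 6.91 in starved worms. The groups were clearly apart, and the difference of 0.94 ± 0.106 was 1.92-fold (adjusted p = 2.41e-05). *col-42* rose from 11.91, 11.72, 12 and 11.95 to 12.89, 12.69, 12.93 and 12.55, again with no overlap, by 0.87 ± 0.0957 (adjusted p = 2.02e-05). *col-103* rose from 9.25, 9.13, 9.50 and 9.48 to 10.38, 10.23, 10.57 and 9.96 (adjusted p = 5.62e-05). For *col-98* the starved arrays read 9.09 to 9.58 and the fed arrays 8.27 to 8.63 (adjusted p = 0.000108).

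Below these came *col-119* (0.78), *col-143* (0.77), *col-8* (0.71) and *col-101* (0.69), all of which passed whichever array was left out. *col-119* had the closest starved arrays of this group, at 9.38, 9.21, 9.33 and 9.37, against 8.31 to 8.74 in fed worms. *col-101* overlapped by a little, since 1 starved array at 8.38 lay under the highest fed array at 8.40. *col-106*, named after its values were seen, had a difference of 0.83 but did not pass (adjusted p = 0.0743). Its fed arrays read 6.91, 8.16, 6.83 and 6.94, so that 1 of them lay among the starved arrays (7.42 to 8.58).

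**Figure D2:**
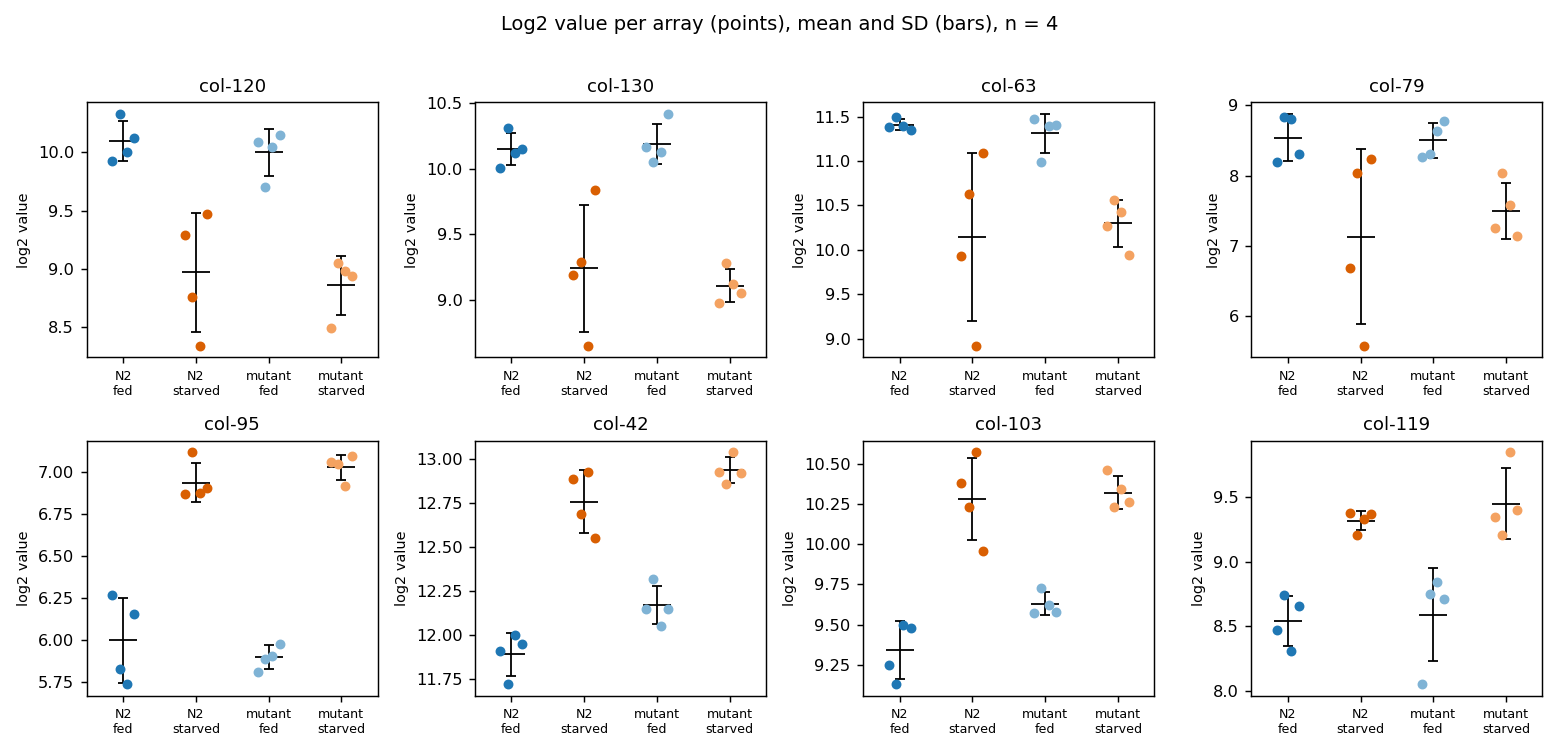
Log2 value per array (points, in replicate order) with the mean and SD (bars, n = 4) for 4 *col* genes that were lower in starved N2 (top) and 4 that were higher (bottom), in each strain with and without food. Each panel has its own scale, which does not start at 0. The starved N2 points of *col-63* run from 8.92 to 11.09, while those of *col-119* run from 9.21 to 9.38.

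In *alfa-1(ok3062)* the same direction prevailed. Starvation lowered 48 of the 153 genes and raised 8, and 97 did not pass. Over all genes 14.3% were lower and 10.9% higher, against 31.4% and 5.23% of the *col* genes. The median difference was -0.19, against -0.0161 over all genes, and 69.3% of the *col* genes lay below 0 against 52.5% of all. The falls ran from -0.32 to -1.20 with a median of -0.72, and the rises from 0.23 to 1.14. Fed and starved arrays did not overlap in 64 of the 153 genes (41.8%), called or not, and in 27.4% of all genes. Those 64 included 45 of the 48 falls and all 8 rises.

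The starved mutant arrays were more alike than the starved N2 arrays. For the 48 genes that fell, the median difference from the fed mean was -0.81, -0.63, -0.73 and -0.74 in replicates 1 to 4. Replicate 2, which stood apart on the second component, was the highest of the 4 for 25 of the genes, and replicate 1 the lowest for 27. Leaving out 1 array of the comparison at a time kept 27 of the falls and 6 of the rises past the threshold in all 8 fits. Without N2 starved replicate 3, which enters through the shared estimate of the spread, 58 genes fell in the mutant, among them all 48. Over all genes 4008 then fell in the mutant, against 3649 with that array.

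*col-54* fell furthest in the mutant. It read 7.22, 6.79, 6.64 and 6.54 in fed worms and 5.31, 5.71, 5.61 and 5.76 in starved worms. The gap between the groups was wider than the spread within either, and the difference was -1.20 ± 0.178, or 2.29-fold lower (adjusted p = 0.000214). In N2 the same gene differed by -0.47, with overlapping arrays (5.91, 6.33, 5.94 and 6.58 fed, 5.90, 5.46, 5.54 and 5.99 starved), and did not pass (adjusted p = 0.0724).

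*col-68* fell in the mutant from 7.01, 6.96, 7.28 and 7.13 to 5.85, 6.15, 5.86 and 5.95, by 1.14 ± 0.18 (adjusted p = 0.000345). *col-130* fell from 10.17, 10.05, 10.13 and 10.42 to 8.98, 9.28, 9.12 and 9.05 (-1.09, adjusted p = 0.000415). *col-120* fell from 10.09, 9.70, 10.05 and 10.15 to 8.49, 9.05, 8.98 and 8.94, by the same 1.13 as in N2. None of these overlapped, and each passed whichever array was left out.

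*col-156* (-1.16, adjusted p = 0.00235), *col-63* (-1.02, 0.0268), *col-167* (-1.0, 0.0297) and *col-157* (-0.97, 0.0203) completed the largest falls in the mutant. Of these, *col-156* passed in all 8 fits. *col-63* did not pass without fed replicate 1, fed replicate 3, fed replicate 4 or starved replicate 4 (adjusted p = 0.0588 to 0.0806), and *col-157* did not pass without fed replicate 4 (0.0537) or starved replicate 4 (0.0658). *col-167* passed in 2 of the 8 fits, those without fed replicate 1 or starved replicate 3, and its fed N2 arrays ranged from 5.33 to 6.94.

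The 8 genes that rose in the mutant were *col-95* (1.14), *col-119* (0.86), *col-42* (0.77), *col-103* and *col-116* (both 0.70), *col-151* (0.63), *col-98* (0.53) and *col-181* (0.23). *col-95* again had the clearest separation, from 5.81, 5.89, 5.91 and 5.98 to 7.06, 7.05, 6.92 and 7.10 (adjusted p = 4.20e-06). *col-42* rose from 12.15, 12.32, 12.05 and 12.15 to 12.93, 12.86, 13.04 and 12.92 (adjusted p = 5.22e-05). *col-151* rested on starved replicate 2, at 5.65 against 4.70 to 4.90 on the other starved arrays, and without it the difference was 0.42 (adjusted p = 0.0901). It also did not pass without fed replicates 1, 2 or 4 (adjusted p = 0.0503 to 0.0796). *col-181* did not pass in 5 of the 8 fits (fed replicates 1, 2 or 3, or starved replicates 1 or 3, left out, adjusted p = 0.0758 to 0.0879).

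**Figure D3:**
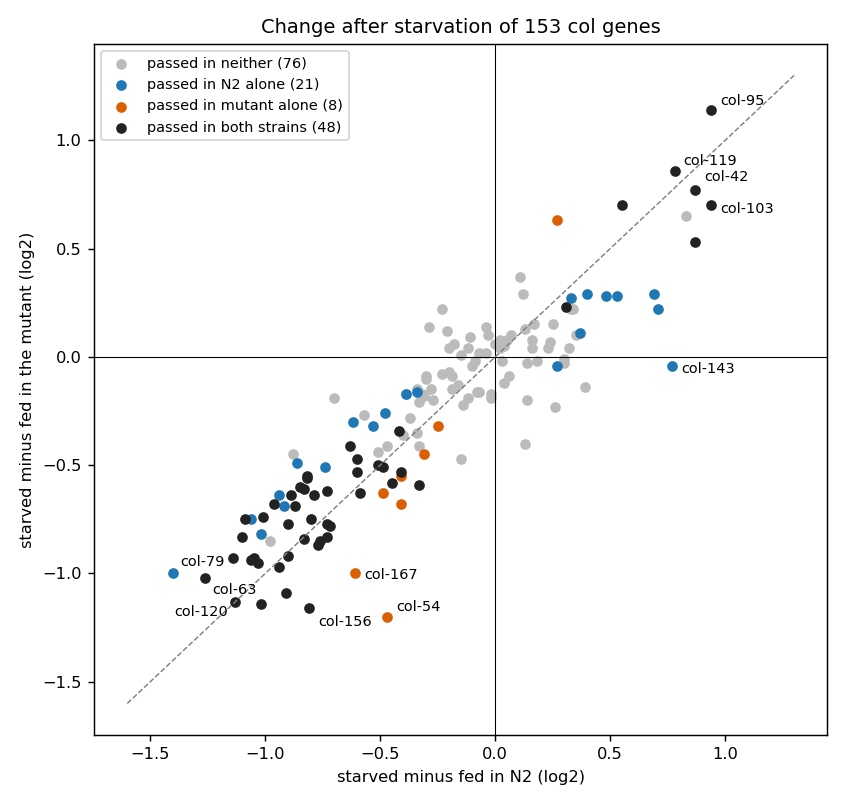
Difference between starved and fed worms (log2) of each of the 153 *col* genes in N2 (x axis) and in the mutant (y axis), coloured by where it passed at an adjusted p under 0.05. The dashed line marks equal differences. The 48 genes that passed in both strains all changed in the same direction in both.

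Set side by side, 41 *col* genes fell in both strains, which was 77.4% of the falls in N2 and 85.4% of those in the mutant. Over all genes the shares were 75.8% and 61.2%. Another 7 rose in both (*col-42*, *col-95*, *col-98*, *col-103*, *col-116*, *col-119* and *col-181*), or 43.8% of the rises in N2 and 87.5% of those in the mutant, against 53.1% and 52.5% over all genes. In N2 the rise of *col-116* was lost without fed replicate 3 or starved replicates 1 or 3 (adjusted p = 0.0546 to 0.0732). No gene rose in one strain and fell in the other. The 12 genes that fell in N2 alone were all below 0 in the mutant, and the 7 that fell in the mutant alone were all below 0 in N2. Among the 41, the fall was larger in N2 for 24. Of the 9 genes that rose in N2 alone, 7 were above 0 in the mutant, and the exceptions were *col-143* and *col-154* (both -0.04). The rise of *col-154* in N2 (0.27, adjusted p = 0.0275) was lost without fed replicates 1 or 3 or starved replicates 2 or 4 (0.0555 to 0.0858). Passing in a single strain does not show a difference between strains, for which the interaction was tested below.

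Most of the changes lay among probe sets with a mean log2 value of 6 or more. The 153 genes divided into 51 with a mean log2 value under 6, 51 from 6 to 9 and 51 at 9 or more. In N2 the falls numbered 3, 24 and 26 in these classes, or 5.88%, 47.1% and 51.0%, against 4.82%, 20.1% and 16.5% of all genes of like signal. In the mutant they numbered 3, 21 and 24, or 5.88%, 41.2% and 47.1%, against 7.0%, 25.2% and 16.6%. The rises in N2 numbered 1, 8 and 7, or 1.96%, 15.7% and 13.7%, against 5.78%, 13.9% and 20.5% of all genes. In the mutant they numbered 2, 4 and 2, or 3.92%, 7.84% and 3.92%, against 10.7%, 10.7% and 12%. The limits of 6 and 9 were set after the values were seen, and signals of different probe sets do not rank the genes by their RNA. Genes in the lowest class, such as *col-51* (3.59 ± 0.0479 in fed N2, 3.61 ± 0.18 in starved N2, SD, n = 4) and *col-9* (3.94 ± 0.0342 and 3.87 ± 0.142), hardly moved, and a change in them may not have been detectable at this signal. *col-55*, *col-78* and *col-185* had comparably low signals and did not pass in any comparison.

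**Figure D4:**
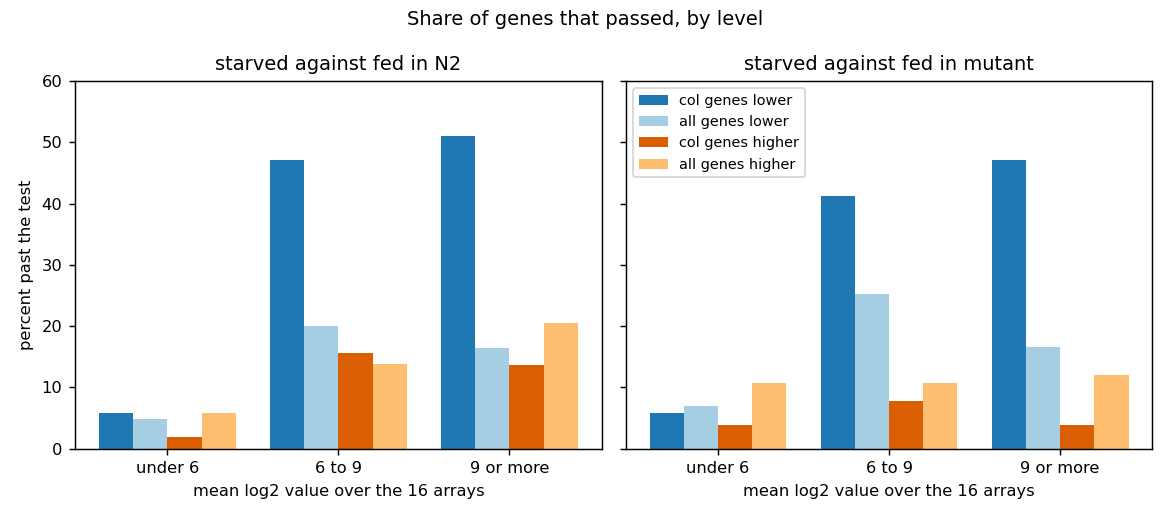
Percent of genes that passed as lower (blue) or higher (orange) in starved worms, for the *col* genes (dark bars) and all genes (light bars), in 3 classes of mean log2 value over the 16 arrays, with N2 at left and the mutant at right. The *col* genes fell more often than all genes from 6 upward, with 51.0% against 16.5% in the top class of N2.

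Of the 5 genes with the brightest probe sets, *col-42* is described above. *col-10*, which is needed for longevity under low insulin signaling, read 13.39, 13.43, 13.40 and 13.33 in fed N2 and 12.89, 13.32, 12.68 and 13.31 in starved N2. The starved arrays of replicates 2 and 4 lay just under the fed range and those of replicates 1 and 3 well under it. Its fall of 0.34 (adjusted p = 0.0442) was lost in 6 of the 8 fits with 1 array left out, each of fed replicates 1 to 4 and starved replicates 1 and 3 (adjusted p = 0.0616 to 0.128). In the mutant it differed by -0.16 (adjusted p = 0.347). *col-125* fell in both strains (-0.60, adjusted p = 0.00179, and -0.47, adjusted p = 0.00878), but other probe sets on the array match it together with *col-3* and *col-117*, so its own RNA may not be separable from theirs. *col-145* differed by -0.51 and -0.44 and did not pass in either strain, with N2 starved replicate 3 at 11.42 and the other N2 starved arrays at 12.30 to 12.77. *col-155* passed in the mutant (-0.55, adjusted p = 0.0255) but not in N2 (-0.41, adjusted p = 0.0957). Its call in the mutant was lost without fed replicate 4 (0.0668) or starved replicate 4 (0.0766).

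Among genes known from the adult or the dauer stage, *col-19*, *col-7*, *col-2* and *col-39* were looked at here. Their differences were at most 0.53 in size, which does not speak for other genes of these stages. *col-19*, the standard adult cuticle marker, read 11.15 to 11.57 in fed N2 and 11.58 to 11.98 in starved N2, a difference of 0.30 that did not pass (adjusted p = 0.13), and differed by -0.03 in the mutant. *col-7*, also an adult collagen gene, fell in both strains (-0.41, adjusted p = 0.0294, and -0.53, adjusted p = 0.00718). In N2 that call was lost without fed replicates 2, 3 or 4 or starved replicates 1 or 2 (adjusted p = 0.0504 to 0.086). *col-2*, the dauer collagen gene, did not pass in either strain (0.11, adjusted p = 0.70, and 0.37, adjusted p = 0.132). *col-39* stood at -0.25 in N2 (adjusted p = 0.0694) and fell by 0.32 in the mutant (adjusted p = 0.021), a call that was lost without fed replicate 2 or starved replicates 2 or 3 (0.0508 to 0.0708).

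Of the other genes tied to longevity under low insulin signaling, *col-13* fell in both strains. Its N2 values went from 12.49, 12.57, 12.28 and 12.47 to 12.20, 11.78, 11.46 and 11.84, all starved arrays lying below all fed ones (-0.63, adjusted p = 0.00172), and it fell by 0.41 in the mutant (adjusted p = 0.0245). The call in the mutant was lost without fed replicate 3 (0.0699), starved replicate 1 (0.062) or starved replicate 3 (0.0568). *col-12*, its direct neighbour on chromosome V, had a low and scattered signal and did not pass (-0.40 and -0.36). *col-144* did not pass in either strain (-0.32, adjusted p = 0.13, and -0.17, adjusted p = 0.436). *col-14* fell in both (-0.82, adjusted p = 0.000355, and -0.55, adjusted p = 0.00554) in every fit with 1 array left out.

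The transcription of *col-41*, *col-141* and *col-142* is known to depend on the body size pathway of the TGF-beta ligand DBL-1. None of the 3 passed after starvation in either strain. *col-41* differed by -0.47 and -0.41 (adjusted p = 0.0731 and 0.109), while *col-141* (0.34 and 0.22) and the adjacent *col-142* (0.24 and 0.07) lay on the other side of 0. *col-99*, a transmembrane collagen of neurons that is not part of the cuticle, fell by 0.42 in N2 (adjusted p = 0.0177) and by 0.34 in the mutant (adjusted p = 0.0421). Its call was lost in N2 without fed replicate 1 or starved replicates 1 or 3 (0.0527 to 0.0547), and in the mutant when any array other than starved replicate 2 was left out (0.0646 to 0.133). *col-140* rose in N2 (0.33, adjusted p = 0.0376) and did not pass in the mutant (0.27). Without fed replicates 2 or 3 or starved replicates 1, 2 or 3 it did not pass in N2 either (0.0715 to 0.107). *col-124* (0.32, adjusted p = 0.0504) stood just outside the threshold in N2. *col-36*, *col-40*, *col-62*, *col-93*, *col-121* and *col-122* did not pass in any comparison.

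The calls of neighbouring *col* genes were set side by side. No expected number of pairs was worked out, so the counts do not show whether neighbours pass together more or less often than others. In the order of protein-coding genes of RefSeq (assembly WBcel235), 24 pairs of the 153 genes were direct neighbours, made up of 41 genes. In N2 both members fell in 1 pair (*col-46* and *col-47*), the members moved in opposite directions in 2 pairs, 1 member passed in 9 pairs and neither in 12. In the mutant 1 member passed in 11 pairs and neither in 13. Both opposite pairs involved *col-20*, which lies between *col-17* and *col-73* on chromosome II (*col-20*, *col-46* and *col-73* are named after their values were seen). *col-20* rose in N2 from 8.47, 8.57, 8.32 and 8.58 to 8.89, 8.88, 9.20 and 9.07 (0.53, adjusted p = 0.00227), while *col-17* fell by 1.09 and *col-73* by 1.01 (adjusted p = 0.00558). Starved replicate 3 was the highest starved array for *col-20* and the lowest for both neighbours. In the mutant *col-20* differed by 0.28 and did not pass (adjusted p = 0.0705), and both neighbours fell again (-0.75 and -0.74), *col-73* in 3 of the 8 fits with 1 array left out. By chromosome, the falls in N2 numbered 18 of 37 genes on IV, 9 of 22 on I, 8 of 24 on II, 8 of 31 on V, 6 of 27 on X and 4 of 12 on III. The share was 34.6% over the 153 genes and 11.6% over all genes. Shares of all genes on each chromosome were not counted.

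The loss of *alfa-1* by itself called no *col* gene. In fed worms 0 of the 153 genes passed between the strains, against 0.0902% of all genes, and the smallest adjusted p was 0.508. At an unadjusted p under 0.05, 8 genes were higher and 0 lower in the mutant, against 2.34% and 2.38% of all genes. The differences ran from -0.30 to 0.61 with a median of -0.01, and 150 of the 153 were within 0.5 of 0. In starved worms 0 genes passed again, against 0.0941% of all genes, and the unadjusted test had 4 genes above and 9 below at the same level (4.86% and 7.27% of all genes). Fed arrays of the 2 strains did not overlap for 6 genes higher and 2 lower in the mutant (4.26% of all genes in either direction), and starved arrays for 1 and 3 (4.24%). With arrays weighted by quality, 1 gene, *col-154*, passed as lower in starved mutants. The 95% interval of a strain difference, not adjusted over genes, reached a median of 0.34 to either side. The adjusted test was stricter than this interval, and a difference of 0.61 in fed worms (*col-54*) did not pass it. Differences below 0.34, and some above it, could thus have gone undetected.

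*col-41* was higher in the mutant in both conditions, though not past the threshold over all genes. Fed N2 worms read 8.67, 8.82, 8.74 and 8.60 and fed mutants 9.39, 9.33, 9.20 and 9.07, with no overlap. The difference was 0.54 (95% interval 0.16 to 0.92, adjusted p = 0.778). Starved N2 worms read 8.34, 8.40, 7.5 and 8.70 and starved mutants 8.87, 8.76, 8.99 and 8.71, with a difference of 0.60 (0.21 to 0.98, adjusted p = 0.28). N2 starved replicate 3, at 7.5, was far the lowest, and the other 3 N2 arrays also lay below every mutant array.

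Fed mutants also had higher mean values of *col-147* (6.46, 6.68, 6.80 and 6.33 in N2, 7.19, 7.25, 6.88 and 6.98 in the mutant) and of *col-54* (0.61). The groups did not overlap for *col-147*, with a difference of 0.51 (0.21 to 0.81, adjusted p = 0.508), and overlapped for *col-54* (adjusted p = 0.604). In starved worms *col-147* differed by 0.37 (adjusted p = 0.343) and *col-54* by -0.12. *col-154* had the smallest p among starved worms. It read 9.64, 9.84, 9.50 and 9.80 in N2 and 9.40, 9.33, 9.42 and 9.24 in the mutant, a difference of -0.35 (-0.53 to -0.17, adjusted p = 0.15) with no overlap. *col-105* (0.47, adjusted p = 0.278) and *col-96* (-0.35, adjusted p = 0.324) followed.

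**Figure D5:**
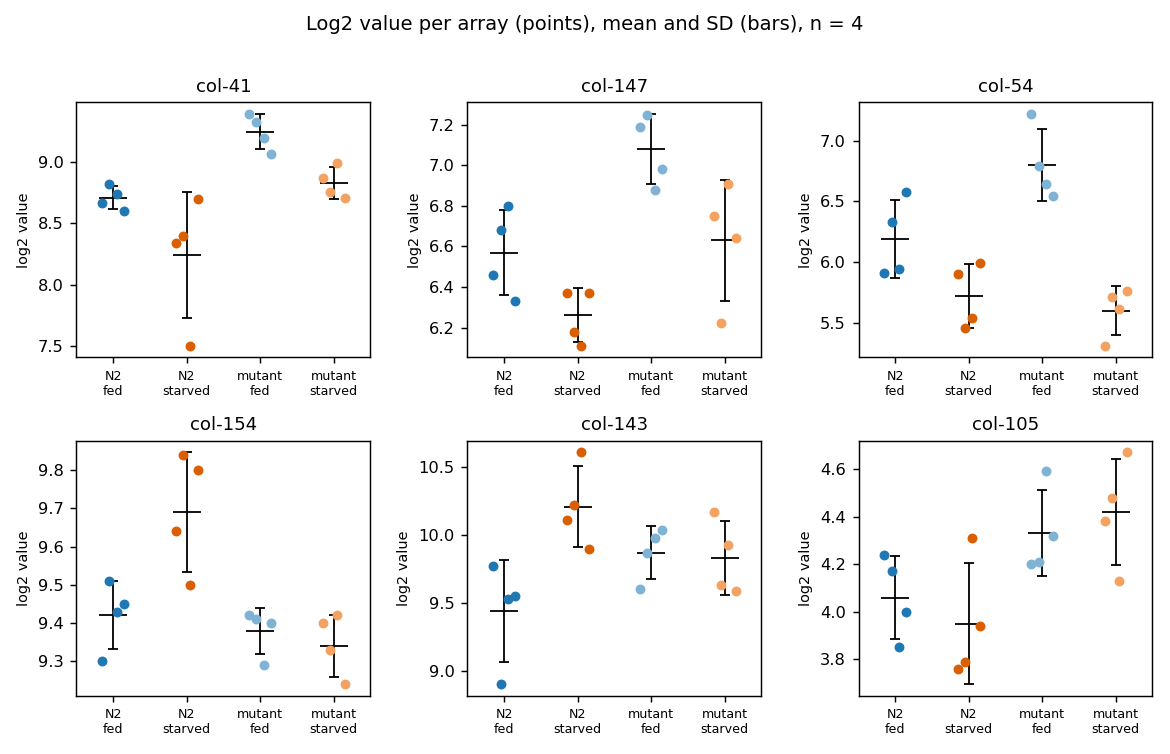
Log2 value per array (points, in replicate order) with the mean and SD (bars, n = 4) of 6 *col* genes with the smallest p-values in comparisons that involve strain. Each panel has its own scale, which does not start at 0. The fed mutant points of *col-41* (9.07 to 9.39) all lie above the fed N2 points (8.60 to 8.82), yet 0 *col* genes passed between strains.

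No *col* gene passed the test of whether starvation acted differently in the 2 strains, and neither did any other gene (0.0% of all genes, smallest adjusted p 0.735). At an unadjusted p under 0.05, 0 *col* genes had a higher and 4 a lower starvation difference in the mutant, against 2.73% and 3.71% of all genes. These 4 were *col-143* (-0.81, 95% interval -1.38 to -0.25), *col-54* (-0.73, -1.27 to -0.20), *col-154* (-0.31, -0.56 to -0.06) and *col-47* (-0.26, -0.47 to -0.04). *col-143* rose in N2 from 9.77, 8.90, 9.53 and 9.55 to 10.11, 10.22, 10.61 and 9.90, and in the mutant it read 9.60, 9.87, 9.98 and 10.04 with food and 10.17, 9.63, 9.93 and 9.59 without. The N2 groups were apart and the mutant groups overlapped. *col-47* had a low signal and fell in both strains, with fed arrays at 4.26 to 4.47 and starved arrays at 3.99 to 4.17 in N2, and 4.55 to 4.67 and 3.97 to 4.09 in the mutant. The interval for the interaction reached a median of 0.48 to either side over the 153 genes.

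Of 20 tested cuticle collagens named after body shape, 16 fell and 2 rose in N2, and 6 fell and 2 rose in the mutant. Over all genes, 11.6% fell and 10.8% rose in N2, and 14.3% and 10.9% in the mutant. Counts in the lists below are to be read beside these shares. The largest falls in N2 were *dpy-2* (-1.46, adjusted p = 0.00462) and *sqt-1* (-1.31, 0.00826), and *dpy-5* (-1.14, 0.000225), *rol-6* (-0.99), *sqt-3* (-0.96) and *bli-6* (-1.04) fell in both strains. The 5 tested collagens of the annular furrows (*dpy-2*, *dpy-3*, *dpy-7*, *dpy-8* and *dpy-9*) all fell in N2, and 1, *dpy-2*, in the mutant. *dpy-14* (0.96 and 1.25) and *dpy-17* (0.89 and 1.13) rose in both strains. The signal of *dpy-14* was low, with means of 3.74 in fed worms of either strain, 4.7 in starved N2 and 4.99 in starved mutants. Without N2 starved replicate 3 the 20 collagens had 11 falls in N2 and 15 in the mutant, and the furrow collagens 3 and 4. Of the basement membrane collagens, which are not made for the cuticle, *let-2* fell in both strains (-0.20, adjusted p = 0.0323, and -0.30, adjusted p = 0.00304), though not in N2 without that array. *emb-9* stood at -0.07 and -0.11 and did not pass.

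Of 25 genes for the making of collagen, 15 fell in N2 and 13 in the mutant, and 1 and 2 rose. The shares over all genes were 11.6% lower and 10.8% higher in N2, and 14.3% and 10.9% in the mutant. *phy-2* and *dpy-18*, the catalytic subunits of collagen prolyl 4-hydroxylase, fell by 1.38 and 0.84 in N2 (adjusted p = 6.82e-05 and 0.0156) and by 1.29 and 0.80 in the mutant (0.000109 and 0.0183). *pdi-2*, the disulfide isomerase that is the other subunit of that enzyme, fell by 0.56 and 0.53. *let-268*, a lysyl hydroxylase, fell by 0.54 and 0.68, and *bli-3*, the dual oxidase that crosslinks the cuticle, by 0.34 and 0.42. *skpo-1*, a peroxidase, rose in both strains (0.54 and 0.63). Without N2 starved replicate 3 there were 10 falls in N2 and 14 in the mutant.

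Of 26 molting genes, 23 fell in N2 and 8 in the mutant, and none rose, with median differences of -1.07 and -0.46 against 0.0076 and -0.0161 over all genes. The largest falls in N2 included *ptr-18* (-1.44), *qua-1* and *ptr-4* (both -1.31), *mlt-10* (-1.28) and *che-14* (-1.26). In the mutant they included *nas-36* (-1.25), a protease of the astacin family needed to shed the old cuticle, *mlt-10* (-0.97) and *ptr-18* (-0.96). The mean over the 26 genes was 9.95 to 10.21 in fed N2 and 9.03, 9.52, 8.40 and 9.66 in starved N2, so the array that was lowest for the *col* genes was lowest here too. In the mutant it was 10.02 to 10.21 with food and 9.52 to 9.80 without. The part of the molting cycle in the fall of the *col* genes was not tested. Without N2 starved replicate 3, 21 molting genes fell in N2 and 13 in the mutant.

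Cuticlins, the insoluble ZP-domain proteins of the cuticle, gave 11 falls and 1 rise among 21 in N2 and 7 falls and 2 rises in the mutant. For these and the regulators below, the shares over all genes were 11.6% lower and 10.8% higher in N2. In the mutant they were 14.3% and 10.9%. *cutl-28* (-1.79 and -1.25, adjusted p = 2.41e-05 and 0.000392) and *cutl-18* (-1.23 and -0.99) fell furthest. Among 19 regulators of cuticle genes, *bed-3* (-1.1), *blmp-1* (-0.98), *grh-1* (-0.63) and *mab-10* (-0.59) fell in N2, and *grh-1* also in the mutant (-0.32). These are transcription factors or cofactors of the epidermis. *lin-14*, *lin-41*, *hbl-1* and *daf-16* rose in N2, and *lin-41*, *daf-16* and *hlh-30* in the mutant, with *daf-16*, the transcription factor opposed by insulin signaling, at 0.53 and 0.58. *nhr-23*, which drives the molting cycle, did not pass (-0.21 and -0.15). Without N2 starved replicate 3, 3 regulators rose and 4 fell in N2, and 4 rose and 3 fell in the mutant. Cuticlins then had 10 falls in N2 and 7 in the mutant.

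Of 14 genes of the TGF-beta body size pathway, 4 rose and 1 fell in N2, and 5 rose and 1 fell in the mutant. The receptor gene *sma-6* (0.45 and 0.60), the Smad gene *sma-2* (0.45 and 0.53), *sma-9* (0.39 and 0.36) and *mab-31* (0.33 and 0.27) rose in both strains. The ligand gene *dbl-1* rose in the mutant (0.29, adjusted p = 0.0276) and stood at 0.26 in N2 (adjusted p = 0.0526). *lon-1*, a secreted protein gene repressed by the pathway, fell in N2 (-1.22, adjusted p = 0.0105). Without N2 starved replicate 3, 3 genes of the pathway rose and 1 fell in N2, and 5 rose and 2 fell in the mutant. Among 13 genes of the response to osmotic stress and cuticle damage, 2 rose and 1 fell in N2, and 1 rose and 2 fell in the mutant. Over all genes 10.8% rose and 11.6% fell in N2, and 10.9% and 14.3% in the mutant. Counts as small as those of the 13 genes are not read as a difference from these shares. *nlp-28*, an antimicrobial peptide gene, rose in both (1.03 and 0.90), *osm-8* fell in N2 (-0.93), and *nlp-29*, the usual reporter of cuticle damage, stood at -0.11 and -0.04.

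Of 10 markers of the hypodermis, the source of the collagens, 3 fell in N2 and 1 in the mutant. These were *rol-6* in both, and *dpy-7* and *wrt-2* in N2. *rol-6* and *dpy-7* are themselves cuticle collagen genes, counted above and part of the marker mean below. The defining factors *lin-26* (0.04 and 0.01), *elt-1* (-0.11 and -0.08) and *elt-3* (-0.09 and -0.12) did not pass. The mean over the 10 markers was 9.09 to 9.32 in fed N2 and 8.62, 8.99, 8.19 and 9.13 in starved N2, lowest again in replicate 3, and 9.23 to 9.30 and 8.98 to 9.11 in the fed and starved mutant. Among 6 body wall muscle markers 1 fell in N2 (*myo-3*) and 0 passed in the mutant. Of 5 pharynx markers 1 (*pha-4*) rose in each strain. Of 8 neuron markers 1 fell in each strain, of 6 germline markers 2 rose in N2 and 1 in the mutant, and of 5 sperm markers 0 passed in N2 and 3 fell in the mutant. Of 7 intestine markers, 1 fell in N2, and 2 fell and 1 rose in the mutant. Of 5 yolk protein genes 3 rose and 2 fell in N2 and 2 rose and 2 fell in the mutant. Over all genes 11.6% fell and 10.8% rose in N2, and 14.3% and 10.9% in the mutant. In lists this short, counts of 1 or 2 are not read as a difference from those shares. The part of these markers in the *col* results was not tested. None of the lists held a gene that passed between the strains or in the interaction.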

How the data were processed

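Total RNA of whole worms was measured on 16 Affymetrix arrays, 4 in each of 4 groups. The log2 values were used as deposited: the authors had made them by RMA, a method that corrects background, normalizes by quantiles and summarises probes. RMA and Partek stand in the processing notes of the submitters, with versions not given in the sources used here. Of 29317 probe sets, 25546 had 1 gene symbol in the platform annotation, 646 had several and 3125 were not listed. Each of 25498 genes kept its probe set of highest mean, and every column of the table belonged to a sample (0 did not). Chromosomes and neighbours came from RefSeq (assembly WBcel235), which matched all 153 *col* genes.

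All 16 arrays were fitted together in limma 3.58.1 (R 4.3.3) with lmFit and eBayes (12 residual and 3.77 prior degrees of freedom). Adjusted p-values (Benjamini-Hochberg, over all 25498 genes, two-sided) under 0.05 were called. Tables and plots used Python 3.11.15 with pandas 2.3.3, numpy 2.4.6, scipy 1.17.1 and matplotlib 3.10.9. The fit was tested on simulated data. Precision is limited by the number of arrays.

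Genes named in the text were the 8 largest rises and falls called in each comparison (with fewer than 4 called, the 4 of smallest p), genes with a known stage or role, the 5 brightest and 5 dimmest, and the 4 of smallest p from each other list. Other genes were chosen after their values were seen. Pairs with near-identical proteins were not looked up, since no protein sequences were used here. The *col* genes, the lists and the tests were chosen with earlier results of these data known. Alternatives were each array left out, the replicate number as a block, the spread from the compared arrays alone, other scalings, array weights, an intensity trend, a filter on dim genes, all probe sets, a minimum fold, the methods' t-test and unadjusted p-values.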

Additional observations from a re-analysis of the deposited data

Results flagged for a closer look

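In the 59 named *col* genes, 236 groups of 4 arrays were examined for 1 array far from the others, where the gap to its nearest neighbour, as a share of the group's range, was past Dixon's 95% critical value. This held in 14 groups, and chance gives about 1 in 20. None of the arrays involved was left out of the comparisons.

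In fed N2, replicate 3 was low for *col-8* (9.33, the others 9.54 to 9.55), *col-9* (3.89, others 3.95 to 3.96) and *col-62* (8.65, others 8.94 to 8.97). Replicate 4 of that group was low for *col-47* (4.26, others 4.43 to 4.47) and *col-185* (3.80, others 4.0 to 4.03) and high for *col-137* (9.20, others 8.46 to 8.50), whose fall in N2 did not pass without it. Replicate 2 was low for *col-121* (4.01, others 4.38 to 4.45). In starved N2, replicate 3 was low for *col-14* (8.85, others 9.33 to 9.42), replicate 1 high for *col-39* (9.80, others 9.51 to 9.55) and replicate 2 high for *col-95* (7.12, others 6.87 to 6.91). The array of N2 starved replicate 3, which stood apart over all genes, was thus singled out for 1 named gene.

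In the fed mutant, replicate 1 was low for *col-19* (11.16, others 11.45 to 11.50) and *col-119* (8.05, others 8.71 to 8.84). In the starved mutant, replicate 2 was high for *col-38* (12.04, others 11.62 to 11.66) and *col-125* (12.77, others 12.57 to 12.60).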

How the results depend on the processing

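No called difference changed sign under the 13 other settings or with 1 array left out, and 21 of the 60 called named results passed under all of them. With 1 array left out at a time, *col* genes that rose numbered 11 to 18 in N2 and 6 to 9 in the mutant, those that fell 38 to 62 and 32 to 58, and 0 to 0 passed between strains or in the interaction. In N2, 8 genes rose by at least 1.5-fold. The methods' t-test after Benjamini-Hochberg adjustment gave 7 rises and 9 falls (19 and 46 unadjusted). The arrays of that comparison alone gave 31 falls. Over all genes the 1.5-fold limit left 913 rises in N2. The methods' t-test left 1456 rises and 1586 falls (3897 and 3764 unadjusted), and the arrays of that comparison alone 2298 falls. The fold limit can only remove calls by its definition, and the cause of the other drops was not tested. By unadjusted p, 8 genes were higher in fed mutants, 4 higher and 9 lower in starved mutants, and 4 lower in the interaction. Array weights gave 1 gene lower in starved mutants, *col-154* (-0.46, adjusted p = 0.0196). With both starved arrays that stood apart left out, chosen after seeing the data, 13 rose and 44 fell in N2 and 7 and 56 in the mutant. Over all genes 2553 rose and 2935 fell in N2, and 2884 and 3337 in the mutant. Samples of the same replicate number did not deviate together (correlations -0.472 to 0.149). With that number as a block, 15 *col* genes rose and 52 fell in N2, and 7 and 47 in the mutant. All genes then had 2448 rises and 2759 falls in N2, and 2551 and 3347 in the mutant. The methods' t-test and the compared arrays alone give no value for the interaction. Genes of low signal are limited by background.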

Other observations

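Probe sets annotated to several *col* genes were in no comparison. A pair of probe sets annotated to *col-3*, *col-117* and *col-125* held identical values, with means of 11.49 ± 0.134 (SD, n = 4) in fed N2 and 11.18 ± 0.297 in starved N2, and 11.49 ± 0.0701 and 11.06 ± 0.203 in the mutant. The probe set of *col-126* and *col-127* read 10.53 ± 0.109 and 9.77 ± 0.669 in fed and starved N2, and 10.42 ± 0.159 and 9.92 ± 0.08 in the mutant.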
